A study of Caenorhabditis elegans with 3 samples.

Results

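The genes considered here encode the contractile machinery of Caenorhabditis elegans muscle and 3 transcription factors of the muscle lineage. They are 30 listed genes of the 19985 protein-coding genes of the annotation. A peak was given to a gene when its summit, the base of highest enrichment in the peak, lay in the gene body or within 2000 bp of one of the gene's transcript starts. This stretch is called the gene's window below. By role the list holds 8 thick-filament genes, 13 thin-filament genes, 2 calcium channel genes and 3 transcription factor genes. A further 4 are grouped as giant and M-line proteins, among them dim-1, which encodes a protein of the muscle attachment region.

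The peaks come from chromatin immunoprecipitation followed by sequencing (ChIP-seq) of EGL-27 in L4 larvae, the last larval stage before adulthood. All libraries come from the strain OP177, which carries unc-119(ed3) III and the transgene wgIs177 and stably expresses EGL-27 with GFP-FLAG joined to its C terminus. Whole animals of pooled sex were used and chromatin was sheared by sonication, so the chromatin of muscle is mixed with that of every other tissue and no result below can be assigned to muscle cells. The 3 libraries, biological replicates 1, 2 and 4, form 1 group with no second condition. The labels do not say how the cultures differed or whether the untagged protein was still made, and a possible control experiment that they name was not analysed here.

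EGL-27 resembles MTA proteins, which are subunits of the nucleosome remodelling and deacetylase complex NuRD, and it is known for roles in embryonic patterning and cell polarity. In body wall muscle, thick filaments of myosin wound around a paramyosin core slide along thin filaments of actin, tropomyosin and troponin. Calcium released into the cytoplasm binds troponin and frees the actin for myosin. The lineage factors HLH-1, UNC-120 and HND-1 act together in the embryo to turn on genes of body wall muscle.

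Each library has its own list of peaks, which the authors deposited under a name that calls it peaks and background for the reproducibility procedure. The pooled list was made from the 3 libraries together and bears the same name, so all of these lists hold background by design. They contain 9666, 13686 and 6636 peaks in replicates 1, 2 and 4 and 30000 in the pooled list. The reproducible list holds 102 peaks with a signal, the authors' value for each peak, between 18.7 and 45.5. At egl-27 itself, the gene present in the transgene, 3 reproducible peaks were listed, and its highest peak ranked 9, 46 and 7 in replicates 1, 2 and 4. Read numbers were not given, so depth is unknown, and signals are compared only within a list.

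The following 7 stretches are shown because they lie under muscle gene peaks that recurred between libraries or had high pooled signals. Each covers 201 bases centred on a pooled-list summit, on the plus strand of ce11 (WBcel235), and none contains an annotated UTR. The act-2 stretch (chrV:11078448-11078648) lies upstream of the gene, the act-4 (chrX:4962255-4962455) and tnt-2 (chrX:8723017-8723217) stretches lie in introns, and the hnd-1 stretch (chrX:11686087-11686287) lies downstream of the gene. The unc-22 (chrIV:12009433-12009633) and unc-68 (chrV:6928507-6928707) stretches are intronic, and the mlc-2 stretch (chrX:17457179-17457379) lies between mlc-2 and mlc-1. Noncoding RNA genes overlap the act-2 stretch (T04C12.18 and T04C12.24) and the mlc-2 stretch (C36E6.11). Capitals mark any match, on either strand, to 3 motifs: GAGAGA, an element of many promoters; TGATAA, a form of the GATA factor site; and CANNTG, the E-box that helix-loop-helix proteins such as HLH-1 bind.
act-2: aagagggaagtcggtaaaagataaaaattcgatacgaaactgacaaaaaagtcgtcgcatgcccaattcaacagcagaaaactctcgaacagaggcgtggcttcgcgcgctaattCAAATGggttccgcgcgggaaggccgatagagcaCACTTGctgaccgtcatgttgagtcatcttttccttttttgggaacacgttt
act-4: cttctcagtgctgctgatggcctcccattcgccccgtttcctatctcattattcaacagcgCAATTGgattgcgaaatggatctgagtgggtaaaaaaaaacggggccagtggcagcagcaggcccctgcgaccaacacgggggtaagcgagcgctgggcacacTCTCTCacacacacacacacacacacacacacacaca
tnt-2: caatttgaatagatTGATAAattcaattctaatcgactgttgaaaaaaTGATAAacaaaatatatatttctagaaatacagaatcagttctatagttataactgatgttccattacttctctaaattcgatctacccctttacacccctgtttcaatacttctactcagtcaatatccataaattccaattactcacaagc
hnd-1: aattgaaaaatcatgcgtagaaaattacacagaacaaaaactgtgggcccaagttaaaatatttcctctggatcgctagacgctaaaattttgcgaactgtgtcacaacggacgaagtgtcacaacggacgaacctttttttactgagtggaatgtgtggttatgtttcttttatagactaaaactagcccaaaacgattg
unc-22: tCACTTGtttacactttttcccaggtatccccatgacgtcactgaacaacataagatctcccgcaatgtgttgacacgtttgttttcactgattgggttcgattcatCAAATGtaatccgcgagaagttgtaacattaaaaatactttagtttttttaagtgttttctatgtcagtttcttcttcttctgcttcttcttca
unc-68: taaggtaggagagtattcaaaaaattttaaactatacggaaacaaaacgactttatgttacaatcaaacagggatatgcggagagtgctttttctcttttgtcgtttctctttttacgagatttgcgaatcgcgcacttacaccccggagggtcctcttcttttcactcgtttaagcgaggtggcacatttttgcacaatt
mlc-2: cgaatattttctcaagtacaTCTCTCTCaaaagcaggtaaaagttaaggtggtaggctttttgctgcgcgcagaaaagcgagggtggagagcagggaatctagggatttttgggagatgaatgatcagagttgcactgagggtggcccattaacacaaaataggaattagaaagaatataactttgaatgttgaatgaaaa

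The act-2 stretch holds 2 E-boxes, the act-4 stretch 1 E-box and 1 GAGAGA match, the tnt-2 stretch 2 TGATAA matches, the unc-22 stretch 2 E-boxes and the mlc-2 stretch 2 overlapping GAGAGA matches. The hnd-1 and unc-68 stretches hold none of the 3 and are printed in lower case throughout. Among all 137 pooled peaks in the windows of the muscle genes, 77 held CANNTG within 100 bp of the summit (56.2%), beside 55.6% of the 25632 pooled peaks in windows of all protein-coding genes. TGATAA was in 26 (19%, against 18.8%). GAGAGA was in 29 (21.2%, against 14%), and the E-box form CACGTG, which CANNTG includes, in 9 (6.57%, against 3.96%). The median GC content was 39.3% in the muscle gene stretches and 36.3% in all, a difference that lies beside both of the higher motif shares, and its part in them was not tested. These matches describe letters only.

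No muscle gene had a peak of the reproducible list, which placed a peak at 0.565% of all protein-coding genes (113 genes). The best pooled-list peak of any muscle gene, in unc-68, had a signal of 9.82 and rank 1621, below the lowest reproducible signal of 18.7. All 30 muscle genes had at least 1 pooled-list peak, as did 77.3% of all protein-coding genes. Thus every gene of the list was near some entry of the relaxed list and none was near an entry of the strict one. With a share of 0.565% over all genes, an absence from 30 genes does not set this list apart. The distance from a muscle gene body to the closest reproducible summit had a median of 239 kb (392 kb over protein-coding genes), and it was shortest at dim-1 (14 kb), mlc-1 (19.2 kb) and ttn-1 (21.9 kb).

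In the single libraries, 23 of the 30 genes (76.7%) had a replicate 1 peak, beside 39.9% of all protein-coding genes. Replicate 2 had a peak at 22 (73.3%, against 49.9%) and replicate 4 at 15 (50%, against 28.7%). In 2 or more libraries a peak was listed for 23 genes (76.7%, against 35.7%), and in all 3 for 9 genes (30%, against 10.8%). Without replicate 1, 2 or 4, both of the other libraries had a peak at 12 (40%, against 18.3%), 11 (36.7%, against 15.2%) and 18 genes (60%, against 23.8%). The muscle genes thus had peaks more often than genes at large in each library. Their windows are longer, with a median of 5701 bp beside 4181 bp, and a longer window holds more peaks.

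The comparison was therefore made within classes of window length. Of the 16 muscle genes with a window under 6000 bp, 12 had a replicate 1 peak (75%, against 34.2% of the 15383 genes of this class), 9 a replicate 2 peak (56.2%, against 43.7%) and 6 a replicate 4 peak (37.5%, against 23.6%). From 6000 to 12000 bp, 6 of 9 had a replicate 1 peak (66.7%, against 53.7%), 8 a replicate 2 peak (88.9%, against 65.7%) and 4 a replicate 4 peak (44.4%, against 40.3%). All 5 with a window over 12000 bp had a peak in every library, beside 77.5%, 86.9% and 65.2% of the 1013 genes of that class. Within each class the muscle share was the higher one in each library, by the widest margin for short windows in replicate 1. With 16, 9 and 5 genes, 1 gene moves these shares by several points. The classes match length only roughly. The long windows of unc-68, unc-22, unc-89 and ttn-1 span 29.4 to 83.7 kb. A bin of 750 protein-coding genes at the lower end of that class has a median of 14530 bp. Middle windows of muscle genes are 8.59 kb or longer except at act-4 (6.25 kb). At the lower end of that class, 2138 genes have a median of 6822 bp. The part of length within classes was not tested. The list also leans to the X chromosome, with 10 of 30 genes there (33.3%, against 13.7% of protein-coding genes). Of the 10 muscle genes on X, 6, 7 and 4 had a peak in replicates 1, 2 and 4 (60%, 70% and 40%, against 42.2%, 53.6% and 33.5%), and 1 had a peak in all 3 libraries (10%, against 13.8%). Of the 20 on the autosomes, 17, 15 and 11 had a peak in these libraries (85%, 75% and 55%, against 39.6%, 49.3% and 28%), and 8 had one in all 3 (40%, against 10.3%). These 8 include all 5 genes with windows over 12000 bp, none of which is on X. The split by chromosome was not matched for window length.

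**Figure D1:**
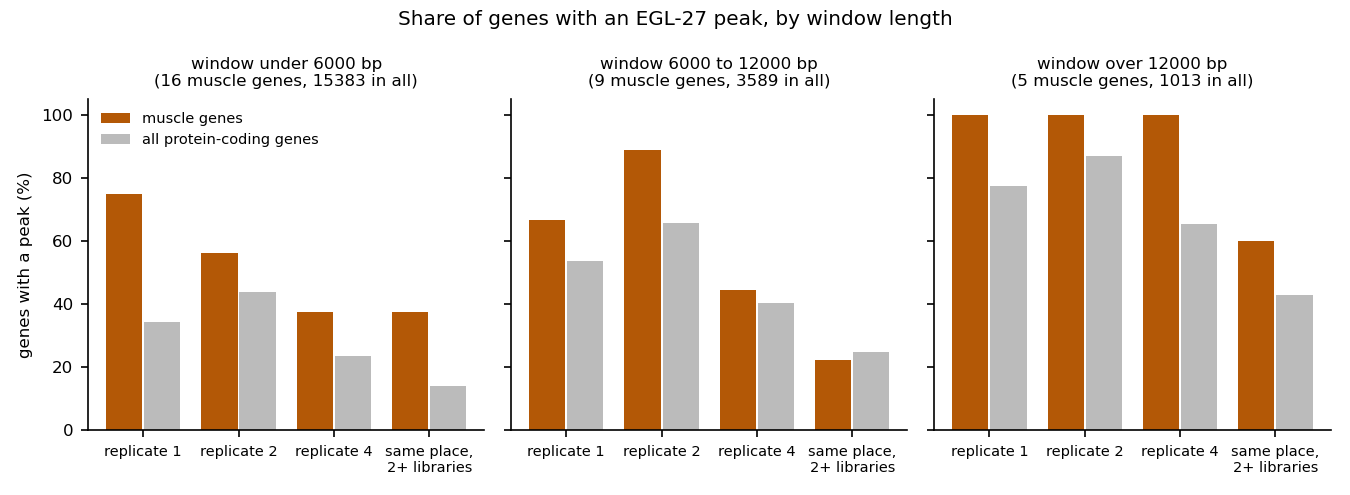
Share of genes with a peak (y axis, percent) in each library, and with peaks at the same place in 2 or more libraries, for the muscle genes and all protein-coding genes in 3 classes of window length. In the class under 6000 bp the replicate 1 bars stand at 75% and 34.2%, and the same-place bars of the middle class, at 22.2% and 24.8%, are the only pair in which the muscle bar is the lower.

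The signals of the muscle peaks were also compared with those of other peaks. The median muscle peak of the pooled list had 47.2% of the list below it, and the median over peaks of all protein-coding windows was 50%. In replicates 1, 2 and 4 the muscle medians were 49.8%, 41.8% and 59.8%, beside 49.8%, 49.8% and 49.6%. The muscle peaks thus sat near the middle of each list, lower in replicate 2 and higher in replicate 4. Of the 137 pooled peaks, 9 were in the upper 10% of the list by signal (6.57%, against 9.92%). They gave 10 genes a peak of this rank (33.3%, against 14.8% of protein-coding genes): mlc-1, mlc-2, mlc-3, act-2, act-4, lev-11, unc-22, unc-89, unc-68 and hnd-1. In the single libraries, 2 genes had an upper-10% peak in replicate 1 (6.67%, against 5.47%), 3 in replicate 2 (10%, against 7.17%) and 2 in replicate 4 (6.67%, against 3.51%). From short to long windows the pooled shares were 31.2%, 22.2% and 60%, against 12.2%, 20.6% and 34.3%. All 3 replicate 2 genes had windows over 12000 bp (60%, against 19.5%). The shorter classes had none there, against 5.53% and 10.7%. In replicates 1 and 4 the direction also differed between classes.

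**Figure D2:**
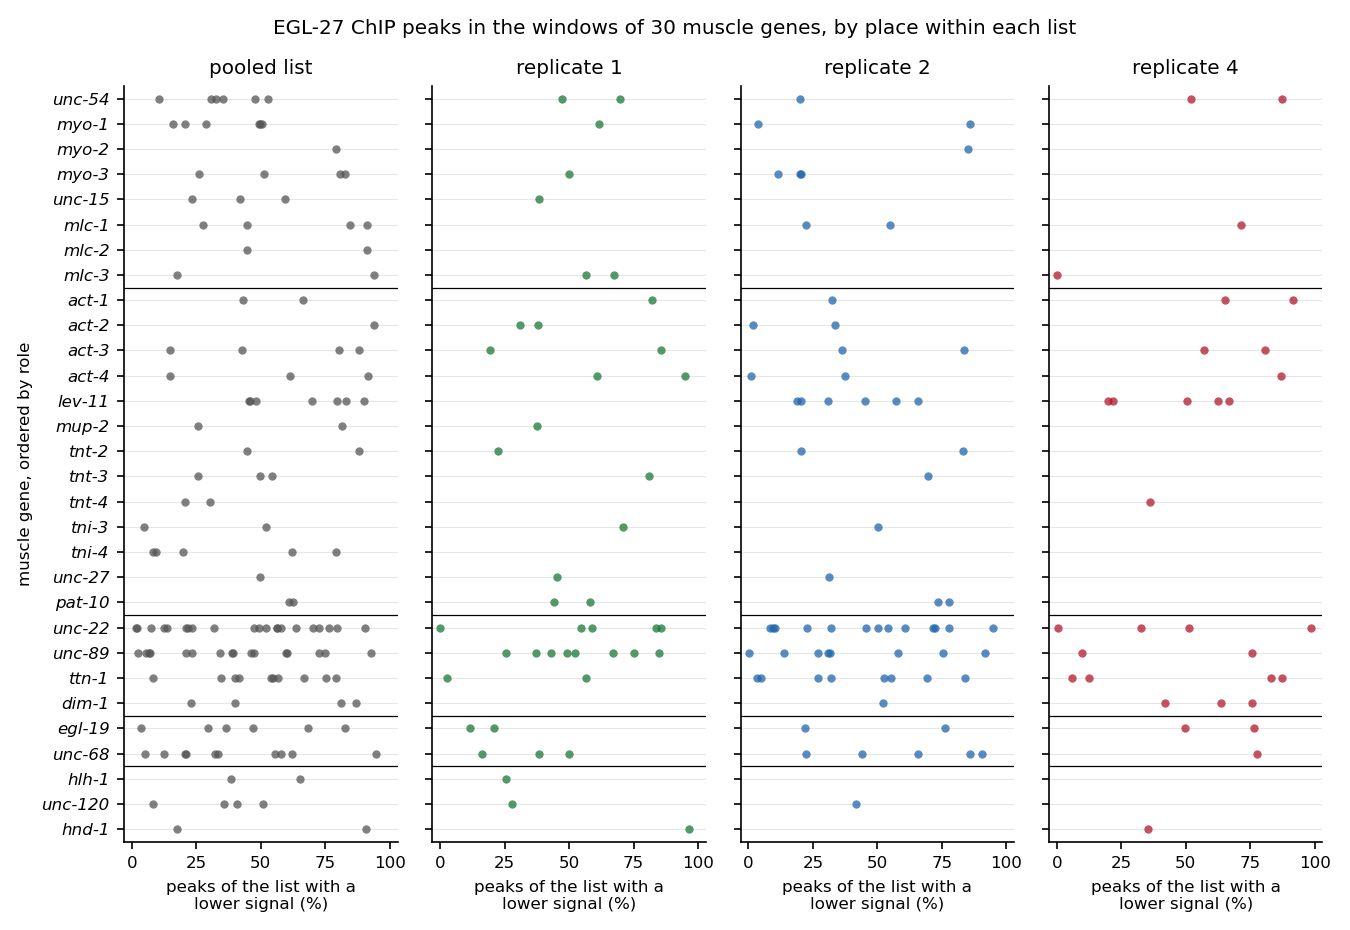
Every peak in the windows of the 30 muscle genes, by gene (y axis, grouped by role between the lines) and by the percent of its list with a lower signal (x axis), in the pooled list and the 3 libraries. Points spread over the whole width of each panel, mlc-2 and tni-4 have points in the pooled panel alone, and unc-22 and unc-89 have the most points there, 21 and 16.

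Peaks were at the same place when those of different libraries overlapped by at least 1 bp with both summits in the window. In 11 genes (36.7%, against 17.4% of protein-coding genes) this held for 2 or more libraries: mlc-1, act-1, act-2, act-3, act-4, lev-11, tnt-2, unc-22, ttn-1, egl-19 and hnd-1. Leaving out replicate 1, 2 or 4 gave 4 genes each time (13.3%, against 7.57%, 5.99% and 10.2%). With each library cut to the length of the shortest list there were 4 genes (13.3%, against 10.8%), and with only the peaks above each list's median signal 3 (10%, against 7.37%), so the distance from the share of all genes was then smaller. In none of the 30 did it hold for all 3 libraries (0 of 30, against 2.27%), and 30 genes are too few to tell this from that share. The windows held 18 such pairs, with summits 14 to 394 bp apart, and in 6 pairs, each in another gene, the summits lay within 100 bp. Of the pairs, 9 joined replicates 2 and 4, 5 joined replicates 1 and 2 and 4 joined replicates 1 and 4. By window length, 6 of 16 short windows had such a pair (37.5%, against 14%), 2 of 9 middle ones (22.2%, against 24.8%) and 3 of 5 long ones (60%, against 42.9%). Seen from the pooled list, 21 of the 137 peaks (15.3%) were overlapped in 2 libraries and none in 3, while 14.6% of all protein-coding pooled peaks were overlapped in 2 or more and 2.03% in 3.

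Among the thick-filament genes, 5 of 8 had a replicate 1 peak (62.5%, against 39.9% of protein-coding genes). Replicate 2 had a peak at 5 (62.5%, against 49.9%) and replicate 4 at 3 (37.5%, against 28.7%), shares not matched for window length. A peak in all 3 libraries was listed for 1 thick-filament gene (12.5%, against 10.8%, and 18.1% with windows of 6000 to 12000 bp). This was unc-54 (WBGene00006789), the major myosin heavy chain of body wall muscle, which has a window of that class. Its highest signals were 3.3 in replicate 1, in the 3' UTR and 202 bp from the start of the neighbour aex-5, 3.46 in replicate 2, in a coding exon, and 4.19 in replicate 4, 211 bp upstream of its start. These are separate places along the gene. The replicate 4 peak lay above 87.3% of its list and the replicate 2 peak above 20%.

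myo-3, the second heavy chain of body wall muscle, had 4 pooled peaks with a highest signal of 7.38 in a coding exon. Its library peaks were 1 in replicate 1 (2.78) and 3 in replicate 2 (up to 3.46), all in coding exons, and replicate 4 had none. The pharyngeal heavy chain myo-1 had 6 pooled peaks, of signal 4.1 to 5.27, and its most prominent library peak was 1016 bp upstream in replicate 2 (5.82, above 85.7% of that list). The other pharyngeal heavy chain, myo-2 (WBGene00003514), had 1 pooled peak (7.03) and 1 replicate 2 peak (5.75), with summits 1617 and 1596 bp upstream of its start. Both of these lay closer to the start of the neighbour cdf-2, at 473 and 452 bp. In a window of 9.29 kb, 1 pooled peak is below the median of 3 peaks for genes of similar length. unc-15, which encodes the paramyosin core of the thick filament, had 3 pooled peaks (4.33 to 5.68) and 1 library peak, in replicate 1 (2.56), 128 bp inside its first transcript start.

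The light chain genes mlc-1 (WBGene00003369) and mlc-2 (WBGene00003370) encode regulatory myosin light chains and lie head to head on chromosome X. They share both pooled peaks of mlc-2, of signal 8.78 and 5.03, and no library list has a peak under the higher of them, whose sequence is shown above. That peak is 693 bp from the mlc-2 start and 1931 bp from the mlc-1 start, so for mlc-1 it lies just inside the limit of 2000 bp, as does a peak 1921 bp upstream of unc-15 (4.33). Just outside the limit were peaks 2009 bp from act-2 (8.11) and 2044 bp from myo-1 (3.76). mlc-1 alone had library peaks: 467 bp upstream in replicate 2 (4.28), and in its 3' UTR in replicate 2 (3.5) and replicate 4 (3.29), with summits 32 bp apart. The pooled peak over that pair had a signal of 7.6. mlc-3, an essential light chain, had an intronic pooled peak of 9.56 (rank 1825), the second highest pooled signal of the list. Of the libraries, only replicate 4 had a peak there, and its signal of 2.01 lay above 0.286% of that list.

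Of 13 thin-filament genes, 10 had a replicate 1 peak (76.9%, against 39.9% of protein-coding genes) and 10 a replicate 2 peak (76.9%, against 49.9%). Replicate 4 had one at 5 (38.5%, against 28.7%), and none of these shares was matched for window length. Peaks at the same place in 2 libraries were found in 6 genes (46.2%, against 17.4%). The actin genes account for 4 of these 6. act-1, act-2 and act-3 form a cluster on chromosome V and act-4 lies on X. At act-2 (WBGene00000064) the replicate 1 summit lay 415 bp upstream (2.56) and the replicate 2 summit 445 bp upstream (3.76), 30 bp apart. Replicate 4 had no peak in the window. The pooled peak there, 394 bp upstream, reached 9.55 and rank 1834, above 93.9% of its list, although the library peaks lay above only 38.1% and 33.7% of theirs.

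act-3 (WBGene00000065) had 2 peaks in each library. Upstream of it, replicate 1 (signal 3.92) and replicate 4 (2.86, 396 bp from the start) overlapped with summits 281 bp apart, and so did replicate 2 (3.84, at 847 bp) and replicate 4 (3.71, at 971 bp). One more upstream place, at 1647 bp, had a replicate 2 peak of 5.65 and the highest pooled signal of the gene, 8.11. All 3 libraries thus had peaks upstream of act-3, at places that overlapped in pairs. act-1 (WBGene00000063) showed peaks in 2 regions: just downstream of the gene in replicate 1 (3.77) and replicate 2 (3.73), with summits 177 bp apart, and near the start in replicate 4, at 277 bp (4.69, above 91.7% of that list) and 49 bp (3.09) upstream. act-4 (WBGene00000066) had an intronic pair 21 bp apart, of 3.01 in replicate 1 and 4.17 in replicate 4, 524 and 503 bp before its second start, with a pooled signal of 8.84. Its highest replicate 1 peak was elsewhere, 399 bp upstream (5.01, rank 488), and the replicate 2 peaks (3.86 and 3.15) overlapped none of these.

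The actins are close copies of one another, which bears on where reads can be placed. Of all 36-base words in the gene windows, 70.7% occurred at a single genomic place for act-1, 77.8% for act-3 and 88% for act-2. ttn-1 (86.2%), tnt-4 (88.6%) and mlc-2 (92.2%) were the other genes under 96.8%. Under the pooled peaks themselves, 126 of 137 had every word at a single place. The lowest shares were 71.9%, at a peak upstream of lev-11, and 75.9%, at the act-1 peak 65 bp upstream of its start. Peaks of the single libraries were not counted in this way. The authors' treatment of reads with several placements is not given in the labels or files used, and the part of repeated sequence in these peaks was not tested.

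**Figure D3:**
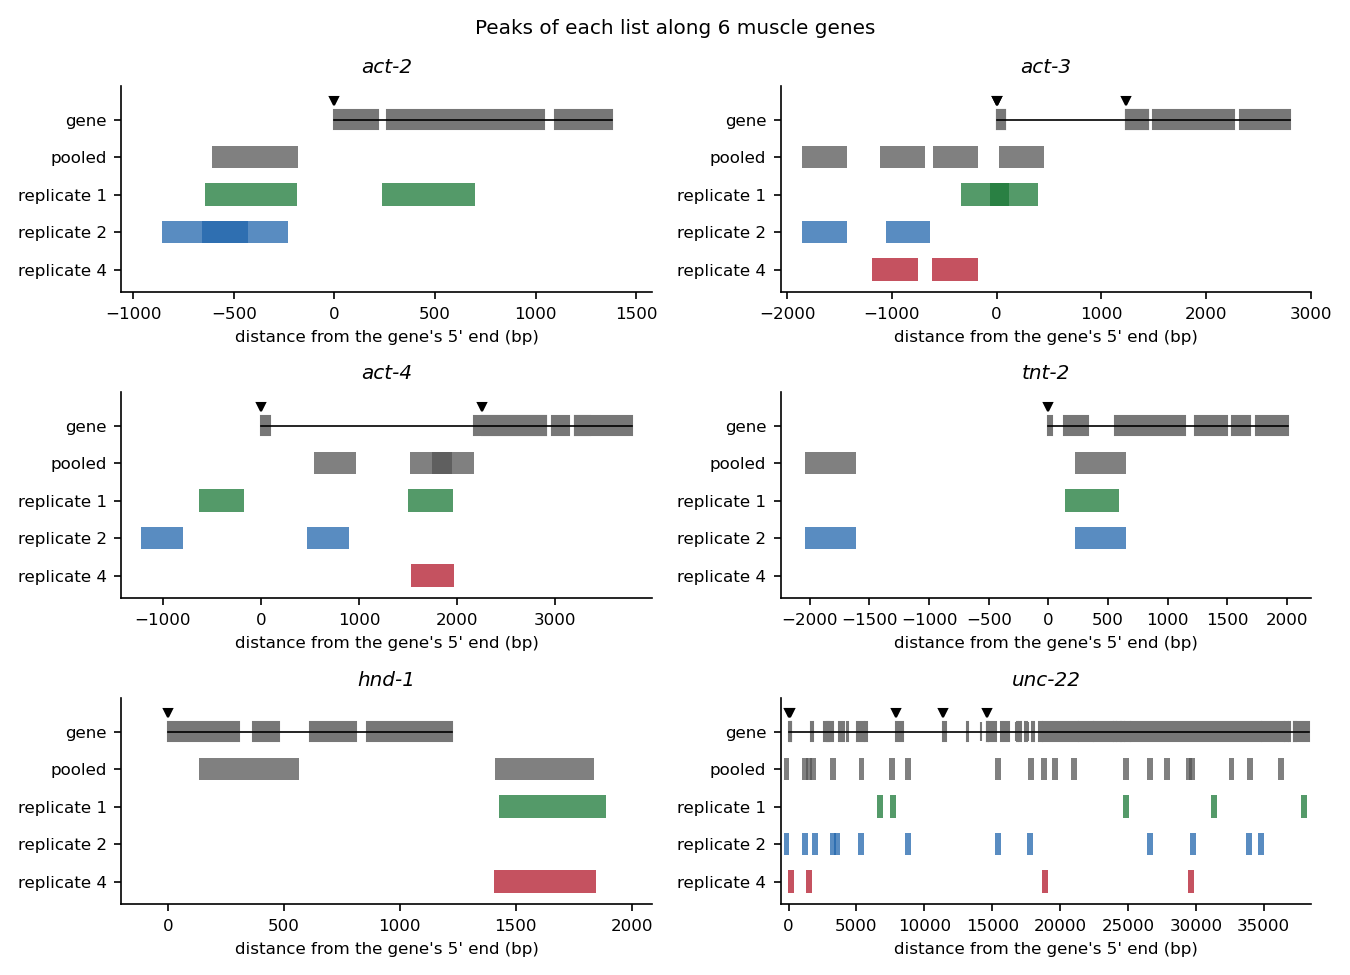
Peaks of the pooled list and of each library (bars, overlaps darker) along act-2, act-3, act-4, tnt-2, hnd-1 and unc-22, with the exons as boxes and transcript starts as triangles; the x axis is the distance from the gene's 5' end in bp. Bars of replicates 1 and 2 coincide upstream of act-2, bars of replicates 1 and 4 coincide in the act-4 intron and downstream of hnd-1, and at no place do all 3 library rows overlap.

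lev-11 (WBGene00002978) encodes tropomyosin, which lies along the thin filament, and has 11 annotated starts. It had 7 pooled peaks, 6 replicate 2 peaks and 5 replicate 4 peaks, but none in replicate 1. At 3 places replicates 2 and 4 overlapped: in introns with summits 118 bp apart (3.96 and 3.15) and 14 bp apart (3.43 and 2.76), and upstream with summits 306 bp apart (3.7 and 3.03). This 14 bp was the smallest distance of all 18 pairs. The highest pooled signal, 8.52, belonged to the first of these places.

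The troponin genes differed among themselves. tnt-2, a troponin T gene, had an intronic peak in replicate 1 (2.38) and replicate 2 (5.62), with summits 68 bp apart and a pooled signal of 8.11. tnt-3, another troponin T gene, had 1 peak each in replicate 1 (3.74) and replicate 2 (4.79), at its far end in a coding exon and in the 3' UTR. mup-2, the troponin T gene named for its mutants' muscle positioning defect, had a replicate 1 peak of 2.56 downstream of the gene, at the summit of a pooled peak of 7.25. tnt-4 had 2 pooled peaks, no more than 4.55, the lowest highest signal of any muscle gene, and a replicate 4 peak of 2.49 in its 3' UTR.

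Of the troponin I genes, tni-3 had a replicate 1 peak 866 bp upstream (3.36) and a replicate 2 peak downstream (4.09) that lay 224 bp from the start of the neighbour phy-3. unc-27 had a replicate 1 peak 781 bp upstream (2.72) and a replicate 2 peak in the 3' UTR (3.71). tni-4 (WBGene00006586) had 5 pooled peaks, of signal 3.89 to 6.99, in a window of 4.53 kb, and no peak in any single library. The highest of them lay 30 bp from the start of the piRNA gene 21ur-8163. All but the peak 26 bp upstream of tni-4 had a piRNA gene as the nearest start, the others at 116, 130 and 470 bp. With mlc-2, tni-4 was 1 of 2 muscle genes whose peaks appeared in the pooled list alone. pat-10, the troponin C that binds calcium, had 2 peaks upstream in replicate 1 (2.96 and 2.69) and 2 downstream in replicate 2 (4.98 and 5.26). None of these 4 genes had a replicate 4 peak, and in none did libraries overlap.

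Of the giant and M-line proteins, unc-22, unc-89 and ttn-1 have the longest windows of the 30 genes. unc-22 (WBGene00006759) encodes twitchin, an intracellular protein kinase of the thick filament, and had 21 pooled peaks in 40.3 kb and 5, 13 and 4 peaks in replicates 1, 2 and 4. Introns near its 5' end held a replicate 2 peak of 7.4 (rank 684) and a replicate 4 peak of 7 (above 98.4% of that list) that overlapped, 1070 and 1395 bp past the nearest start, with summits 325 bp apart. These were the highest muscle signals of both libraries, and replicate 1 had no peak there. The 3 pooled peaks that overlap them had signals of 5.5, 6.46 and 3.76. Replicates 2 and 4 also overlapped at the start of unc-22 (3.51 and 2.78) and in a coding exon, 15139 and 14997 bp past the nearest start (5.26 and 2.01). A further intronic pooled peak (6.77) and a replicate 2 peak (4.88) lay 29 and 34 bp from a tRNA gene, and a replicate 2 peak of unc-68 (4.68) lay 26 bp from another.

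unc-89 (WBGene00006820), the obscurin homologue of the M-line, had 16 pooled peaks in 57.2 kb and 8, 8 and 2 peaks in replicates 1, 2 and 4, yet no place was shared between libraries. Its highest pooled signal was 9.22, in an intron, where replicate 2 also had a peak (5.1). ttn-1, a titin-like protein, has a window of 83.7 kb, rank 3 by length among all protein-coding genes, and had 10 pooled peaks and 2, 8 and 4 library peaks. Upstream of it, replicate 1 (2.91) and replicate 2 (3.72) overlapped with summits 367 bp apart. dim-1, which encodes an immunoglobulin-domain protein of the muscle attachment region, had 1 replicate 2 peak near its start (4.16) and 3 replicate 4 peaks (2.6 to 3.49), at other places, with none in replicate 1.

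Set against length, these counts were not alike. Over all muscle windows there were 3.65 pooled peaks per 10 kb, beside 3.1 over protein-coding windows. This total weights long genes most. The median over genes was 4.74 per 10 kb, beside 2.5. From short to long windows the medians were 5, 4.2 and 3.41, beside 2.5, 3.01 and 3.01. In a window of 4 kb, 1 peak already makes 2.5 per 10 kb. Per 10 kb, unc-22 had 5.21, more than 89.6% of the 1013 genes with windows over 12000 bp, and ttn-1 had 1.19, more than 8.49% of them. egl-19 (3.96), unc-68 (3.41) and unc-89 (2.8) were in between, above 71.1%, 61.6% and 44.5%. The muscle genes with the longest windows thus ranged from the sparse to the dense end of long genes. For single libraries the totals were 1.16, 1.76 and 0.84 peaks per 10 kb in replicates 1, 2 and 4, beside 1.01, 1.4 and 0.684.

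**Figure D4:**
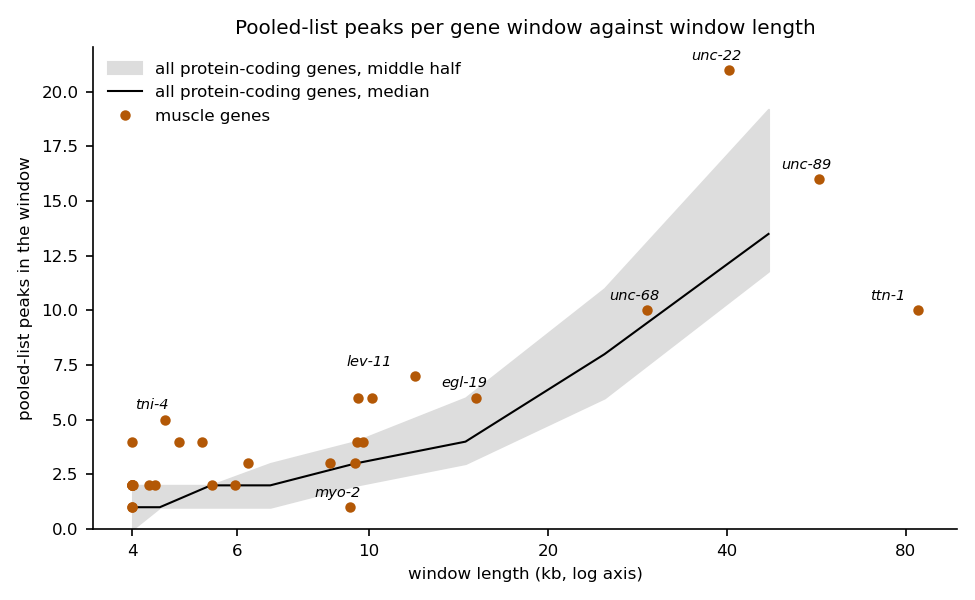
Number of pooled-list peaks in the window (y axis) against window length (x axis, kb, log scale) for the 30 muscle genes (points), with the median and middle range between quartiles of all protein-coding genes in 8 bins of length. unc-22, with 21 peaks, lies above the range, ttn-1, with 10, lies below the level of the last bin, and most shorter genes lie at or above the median line.

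Both calcium channel genes had peaks in all 3 libraries, as did 49.3% of protein-coding genes with windows over 12000 bp. egl-19 (WBGene00001187) encodes the pore of the voltage-gated calcium channel that starts contraction, and had 2 peaks in each library. In a coding exon, replicate 1 (2.18) and replicate 4 (2.76) overlapped with summits 281 bp apart, above 11.4% of the replicate 1 list and 49.6% of the replicate 4 list. The highest pooled signal, 7.39, lay 302 bp upstream with a replicate 2 peak of 5.15 and was closer, at 197 bp, to the start of C48A7.16. unc-68 (WBGene00006801) encodes the ryanodine receptor that releases stored calcium, and carried the highest pooled signal of all muscle genes, 9.82, in an intron 342 bp past the nearest of its 3 starts. Replicate 2 had a peak there of 6.37 (above 90.7% of its list), and neither other library did. Another replicate 2 peak, of 5.83, lay 37 bp before a different start, above 85.8% of that list. The 3 replicate 1 peaks (2.23 to 2.78), the 1 replicate 4 peak (3.53) and the other replicate 2 peaks (3.5 to 4.68) lay elsewhere.

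Of the 3 transcription factor genes, all had a replicate 1 peak (against 39.9% of protein-coding genes), 1 a replicate 2 peak (49.9%) and 1 a replicate 4 peak (28.7%). hlh-1 (WBGene00001948), the homologue of MyoD, had 2 pooled peaks, 759 bp upstream (4.82) and in an intron (5.95), and 1 library peak, in replicate 1 (2.4), 57 bp before an internal start. unc-120, related to serum response factor, had 4 pooled peaks (3.89 to 5.3) and peaks in replicate 1 near the start (2.4) and in replicate 2 in a coding exon (3.89). Both of these replicate 1 peaks lay in the lower part of their list, above 25.4% and 27.7% of entries. Downstream of hnd-1 (WBGene00001981), the HAND factor, replicate 1 had its highest muscle peak (5.33, rank 350) and replicate 4 a peak of 2.49, above 35.3% of its list, with summits 33 bp apart. The pooled signal there was 8.71, and the other pooled peak of the gene, in an intron, had 4.16, above 17.4% of the list. That place is 1626 bp from the hnd-1 start, its nearest coding start, and replicate 2 had no peak in the window.

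By position, 51 of the 139 pairs of a muscle gene and a pooled peak had the summit in an intron (36.7%, against 28.4% over protein-coding genes), 43 in a coding exon (30.9%, against 20.2%), 34 upstream (24.5%, against 37.6%), 6 in a 3' UTR (4.32%, against 3.64%) and 5 downstream (3.6%, against 8.24%). Gene bodies take up more of the longer muscle windows, and the shares were not matched for that. A pooled summit lay within 500 bp of a transcript start in 20 muscle genes (66.7%, against 36.5%). In replicates 1, 2 and 4 this held for 11 (36.7%, against 13.6%), 9 (30%, against 18.8%) and 6 (20%, against 10.1%). By window length, the pooled shares were 10 of 16 short windows (62.5%, against 32.8%), 6 of 9 middle ones (66.7%, against 46%) and 4 of 5 long ones (80%, against 58.1%). In single libraries the muscle share was not the higher in every class: it was 22.2% against 24% for middle windows in replicate 2 and 20% against 20.5% for long ones in replicate 4. A gene with more annotated starts has more places that count here, and the shares were not matched for that. lev-11 has 11 starts, tnt-3 has 7, and unc-22, unc-89 and ttn-1 have 5 each, while many muscle genes have 1. A muscle gene had the nearest protein-coding start for 81.8% of the 137 pooled peaks, and the others were closer to a neighbour, as at myo-2. With genes of every type counted, the nearest start was that of a noncoding RNA gene for 51 (37.2%) and of a piRNA gene for 14 (10.2%). This was not counted over other genes.

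Further genes of muscle were examined in 4 lists. Of 20 further sarcomere proteins, 17 had a pooled-list peak, 8, 15 and 10 had peaks in replicates 1, 2 and 4, and 4 had peaks at the same place in 2 or more libraries. Of 26 genes for muscle attachment and dense bodies, which anchor the thin filaments to the membrane, these numbers were 23, then 20, 19 and 12, then 6. Of 23 genes for excitation and calcium handling they were 21, then 10, 15 and 9, then 3, and of 22 mesoderm and muscle regulators 18, then 12, 12 and 8, then 6. The shares over all protein-coding genes to set beside these are 77.3%, then 39.9%, 49.9% and 28.7%, then 17.4%. They were not matched for window length, and many genes of these lists have long windows. With windows of 6000 to 12000 bp, 53.7%, 65.7% and 40.3% of protein-coding genes had a peak in replicates 1, 2 and 4. At the same place in 2 or more libraries it was 24.8%. No gene of these lists had a reproducible peak, beside 0.565% of protein-coding genes. Of these 91 genes, 2 had peaks of all 3 libraries at 1 place, beside 2.27% of protein-coding genes. mel-26, an adaptor for protein degradation that also acts in muscle, had upstream peaks of 4.38, 6.25 and 2.05 in replicates 1, 2 and 4 within 426 bp and a pooled signal of 12.3. unc-115, an actin-binding protein, had peaks near its start of 3.14, 7.21 and 3.64 within 212 bp and a pooled signal of 13.2 (rank 422). Both pooled signals exceed the 9.82 of unc-68, as do those of several other genes of these lists, up to 16.1 (rank 182).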

How the data were processed

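ChIP-seq peak lists of 3 libraries were used as the authors deposited them, on ce11, the same assembly as the WBcel235 annotation (Ensembl release 115) and genome; the ce10 lists were not used. The signal of each peak is the authors' deposited value, on a scale the labels do not give, and served only to rank peaks within a list. The library lists came from each alignment with a control, the pooled list from the 3 together and the reproducible list from the irreproducible discovery rate procedure, per the deposited texts. For the aligner, the peak caller and the thresholds: not given in the sources used here. Peaks are 430 bp wide in the pooled list and 460, 430 and 440 bp in replicates 1, 2 and 4. No read depth was given, so no interval is printed.

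Genes were matched by symbol. Each window joined the gene body and 2000 bp on both sides of every transcript start, and a peak counted by its summit. Counts were set beside those over 19985 protein-coding genes, in all and by window length (under 6000, 6000 to 12000 and over 12000 bp), without any test. Upstream and downstream mean inside the window but outside the gene body, and distances run to the nearest start of the gene. Assignment was tested on planted peaks. All 30 genes are named; of the other lists only genes with all 3 libraries at the same place. The members and lists were chosen with earlier results of these data known. Alternatives changed the window, the overlap, the list depth and the libraries. Python 3.11.15, pandas 2.3.3, numpy 2.4.6 and matplotlib 3.10.9 were used.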

Additional observations from a re-analysis of the deposited data

How the results depend on the processing

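No alternative gave a muscle gene a reproducible peak, and none with all 3 libraries gave a muscle gene peaks of all 3 at the same place. With only the peaks of each list above its median signal, 15 genes had a replicate 1 peak (23.2% of protein-coding genes), 5 had peaks in all 3 libraries (3.59%) and 3 at the same place in 2 or more (10%, against 7.37%). With each library cut to the shortest list, 14 had a replicate 2 peak (29.3%), 5 had peaks in all 3 libraries (6.33%) and 4 at the same place (13.3%, against 10.8%). Requiring summits within 100 bp left 6 at the same place (20%, against 8.5%). Leaving out replicate 1, 2 or 4 in turn and asking for both other libraries gave 11 to 18 genes with a peak in each and 4 genes, every time, at the same place (13.3%, against 7.57%, 5.99% and 10.2%), so the 11 genes at the same place come from different pairs of libraries. The remaining alternatives, a reach of 500 bp, starts without the gene body and any overlap with the window, moved no count by more than 1.5 times. The depth is unknown, and the relaxed lists hold an undetermined share of background. No paired analysis was possible because the 3 libraries form 1 group.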
